A study of Mus musculus with 6 samples.

Results

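The genes described here encode the nuclear receptors of the PPAR (Ppara, Ppard, Pparg), RXR (Rxra, Rxrg) and ERR (Esrra, Esrrg) families together with the coactivators Ppargc1a and Ppargc1b and the corepressor Nrip1. They were taken by name from the platform's annotation of the array, and all 10 were found among the 12394 genes measured, on 16 of the 20393 probe sets that carry 1 gene symbol. Ppargc1a was read by 5 probe sets, Rxra and Nrip1 by 2 each, and the other 7 genes by 1 each. RNA came from subcutaneous white fat, labelled IWAT (read here as inguinal), and was hybridised to Affymetrix arrays, which give 1 intensity per probe set. Control mice carried 2 floxed alleles of Yy1 (YY1flox/flox), and YY1bKO mice carried the same alleles with Ucp1Cre, a Cre recombinase driven by Ucp1 sequences, whose activity is greatest in brown and beige adipocytes. The mice of both groups were 8 weeks old, on a mixed C57BL6 and 129 background, and had eaten a high fat diet for 2 weeks. Each group had 3 arrays, and the labels do not say whether each array is a separate animal. The p-values therefore cover only the spread among these arrays, which may be technical. The samples used here include none with Cre on unfloxed Yy1, so effects of the transgene and of Yy1 loss cannot be told apart.

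PPARs bind DNA as pairs with an RXR partner and are switched on by fatty acids and their derivatives. PPAR gamma drives adipocyte formation and lipid storage, while PPAR alpha and PPAR delta drive fatty acid oxidation, and ERR alpha and ERR gamma control genes of the mitochondrial energy supply without a known hormone. PGC-1 alpha and PGC-1 beta, the products of Ppargc1a and Ppargc1b, bind these receptors and raise the activity of their target genes, whereas the product of Nrip1 binds them and represses oxidative genes in white fat. Cold raises Ppargc1a in thermogenic fat through adrenergic signals and cyclic AMP, and YY1 itself has been described as a partner of PGC-1 alpha on mitochondrial genes in muscle.

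RefSeq's promoter table of GRCm38.p6 gave 17 start sites for 9 of the 10 genes, all but Ppargc1b. The 250 bases before each start were searched on both strands for the receptor-binding element AGGTCA, for 2 copies of it in a row with 1 base between them (the site of PPAR and RXR pairs), for the ERR element TNAAGGTCA, for the YY1 motifs GCCATNTTG and AAGATGGC followed by GGC, and for the cyclic AMP element TGACGTCA and its core TGACG. Matches to the longer receptor elements and to TGACGTCA also count as matches to the shorter ones within them. The 2 elements of cyclic AMP were added to the search after the values were seen. Of the 17 windows, 4 held AGGTCA (1 of Rxra, 1 of Rxrg and 2 of Pparg), against 14.0% of the 32536 different windows of the table, and 2 held TGACG (Ppara and Ppargc1a), against 17.9%. None held the paired element (0.0338% of all windows), the ERR element (1.13%), GCCATNTTG (1.34%), the longer YY1 motif (0.209%) or TGACGTCA (1.56%). A match is a stretch of letters and not a binding site, and no match concerns only this window. The windows of Pdk4 and Yy1 were searched too and held none of these elements. That of Slc27a2, a target gene that also passed the test, was not searched. No window is reported for Cidea and Cpt1b, which were also on the search list. The windows of Ppargc1a and Ppara are shown because these 2 genes had the largest differences of the group, and those of Ucp1 and Fabp3 because these target genes were searched and passed the test. They lie at chr5:51567726-51567975 on the minus strand (Ppargc1a), and on the plus strand at chr15:85735526-85735775 (Ppara), chr8:83290098-83290347 (Ucp1) and chr4:130308488-130308737 (Fabp3). Each is read 5′ to 3′ toward the start, with matches to AGGTCA or TGACG on either strand in capitals.
Ppargc1a: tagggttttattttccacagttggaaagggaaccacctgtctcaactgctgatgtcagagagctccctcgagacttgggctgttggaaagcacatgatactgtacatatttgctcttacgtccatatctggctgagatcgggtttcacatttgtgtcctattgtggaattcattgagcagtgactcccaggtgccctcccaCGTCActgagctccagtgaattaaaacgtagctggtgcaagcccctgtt
Ppara: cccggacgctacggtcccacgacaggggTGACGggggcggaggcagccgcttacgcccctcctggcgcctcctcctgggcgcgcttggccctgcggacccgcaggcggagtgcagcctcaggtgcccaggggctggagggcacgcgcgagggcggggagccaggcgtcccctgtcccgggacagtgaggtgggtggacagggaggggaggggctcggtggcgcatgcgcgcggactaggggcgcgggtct
Ucp1: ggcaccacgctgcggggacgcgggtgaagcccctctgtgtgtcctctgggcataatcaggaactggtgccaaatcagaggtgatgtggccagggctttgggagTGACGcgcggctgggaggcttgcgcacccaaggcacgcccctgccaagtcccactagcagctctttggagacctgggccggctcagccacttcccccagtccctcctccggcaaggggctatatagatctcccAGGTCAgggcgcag
Fabp3: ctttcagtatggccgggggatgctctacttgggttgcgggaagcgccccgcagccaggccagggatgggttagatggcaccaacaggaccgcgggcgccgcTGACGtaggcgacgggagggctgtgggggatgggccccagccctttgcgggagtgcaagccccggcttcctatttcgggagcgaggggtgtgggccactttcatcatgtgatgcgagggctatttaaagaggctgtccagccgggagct

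In these windows Ppargc1a held the reverse complement of TGACG, whose first base stood 49 bases before the start, and Ppara held TGACG 222 bases before it. Ucp1 held TGACG 147 and AGGTCA 14 bases before its start, and Fabp3 held TGACG 149 bases before its own. The windows shown were picked, so TGACG in each of them gives no share to set against the 17.9% of all windows.

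The arrays were compared on log2(intensity + 1) with limma, and p-values were adjusted over all 20393 probe sets by the Benjamini-Hochberg method. Array medians lay between 123.15 and 130.35 on the intensity scale, and lower quartiles between 4.95 and 5.03 on the log2 scale. A probe set near or below that quartile is called dim here, and the change of a dim gene is understated on this scale. Adipoq, the adipocyte hormone adiponectin, had log2 means of 14.08 in control arrays and 14.21 in YY1bKO, and none of the 10 white adipocyte markers measured was dim on every array, so the label of fat held. The arrays differed in markers of other tissues. The mean of 10 skin epithelium markers, relative to its mean over all arrays, was 3.62 in control replicate 2. In the other arrays it was between -0.84 and -0.56, and Krt1 of this list was below the lower quartile on every array. The mean of 12 mammary epithelium markers was also highest in control replicate 2, at 1.31, and between -0.50 and 0.28 in the other arrays. Of these 12, 3 were below the lower quartile on every array. The mean of 20 skeletal muscle markers was 1.70 in YY1bKO replicate 1, -0.42 and -0.40 in the other YY1bKO arrays, and between -0.41 and -0.12 in the controls, with Myh2 and Myh7 below the lower quartile on every array. The mean of 9 B cell markers was -1.83, 0.81 and 2.06 in control replicates 1 to 3 and -2.10, 1.12 and -0.05 in YY1bKO replicates 1 to 3, with Pax5 below the lower quartile throughout. Some results for members and target lists are therefore also given without 1 or more of these arrays, though not for each array in turn. Counts of marker lists are given with all arrays only.

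Yy1, the targeted gene, had a log2 difference of -0.24 ± 0.12 (SE, n = 3 per group) on its brightest probe set, and between -0.19 and -0.07 on 3 others, with limma adjusted p-values of at least 0.601. The deleted stretch and the place of these probe sets in it were not stated, so they do not check the deletion. Ucp1 was 38.2-fold higher in YY1bKO (log2 difference 5.25 ± 0.14, SE; limma adjusted p = 2.16e-04), and it was one of the 6 probe sets called, 0.0294% of those tested, all of them higher in YY1bKO. Without control replicate 3 there were 3 such calls, and with 1 YY1bKO array left out, whichever it was, there was 1.

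No member passed an adjusted p of 0.05 by limma, and the lowest adjusted p among the 16 member probe sets was 0.356. At an unadjusted p under 0.05, 3 of the 16 were higher in YY1bKO, where 7.69% of all probe sets were, and none was lower, where 2.05% were. These 3 were the single Ppara probe set and the brightest pair of Ppargc1a, and their number was 1 without control replicate 3 and 5 without YY1bKO replicate 3. The 2 groups of arrays did not overlap for 2 of the 16, both of Ppargc1a and both higher, against 10.5% of all probe sets higher and 5.09% lower in that way. The median log2 difference was 0.20 over the 16 probe sets and 0.07 over the brightest probe set of each gene, beside 0.0012 over all probe sets and 0.0046 over all genes. The 6 probe sets of Ppargc1a and Ppara had differences between 0.50 and 1.17, and the 10 of the other 8 genes had differences between -0.17 and 0.24. The intervals of Ppara and Pparg overlapped.

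**Figure D1:**
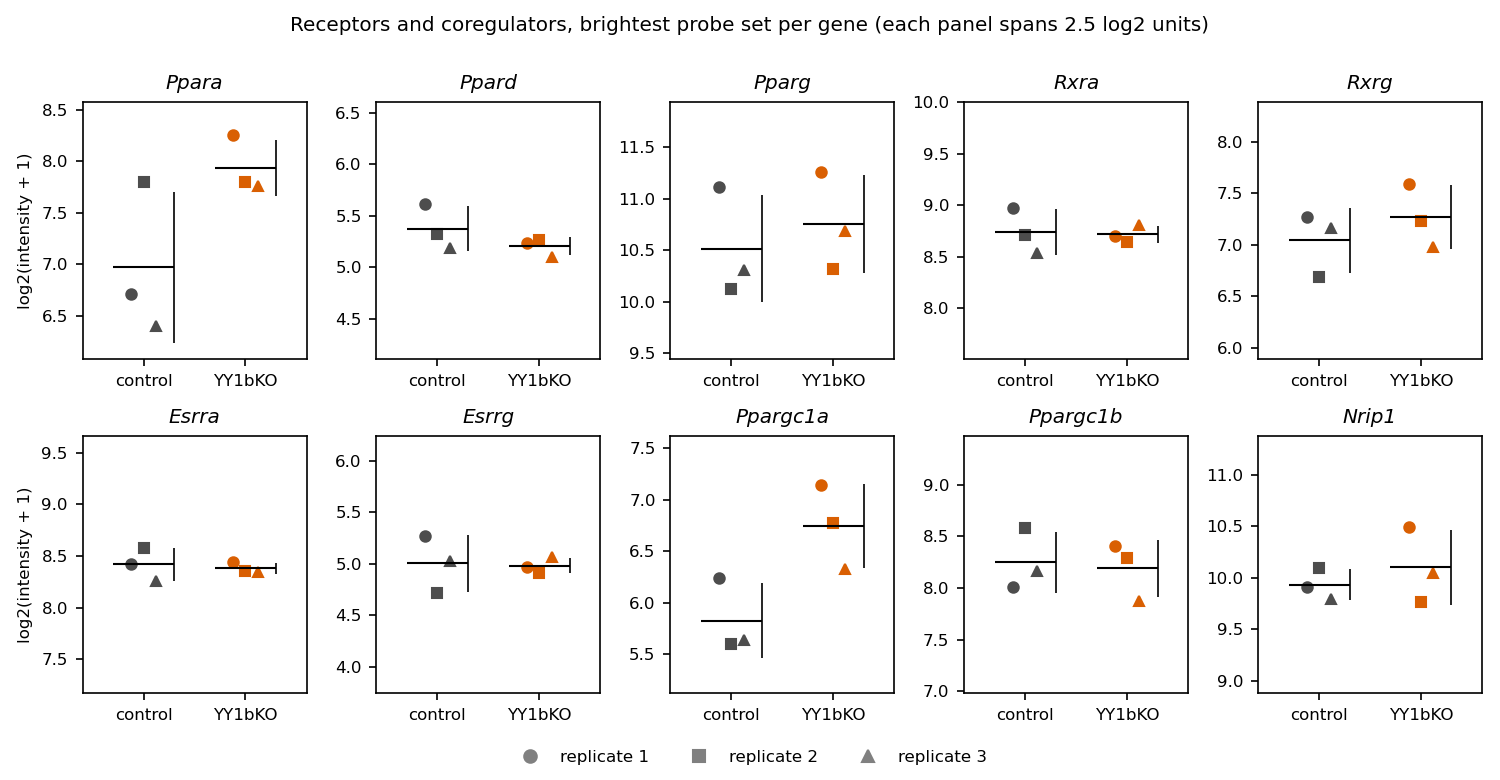
Log2(intensity + 1) of the brightest probe set of each of the 10 genes on the 3 control and 3 YY1bKO arrays, with 1 symbol per replicate number, a horizontal line at the group mean and a vertical bar of 1 SD to each side. Only the panel of Ppargc1a has every YY1bKO array (6.32 to 7.14) above every control array (5.60 to 6.24), and in the panel of Ppara control replicate 2 lies level with 2 of the YY1bKO arrays. Of all genes, 11.5% had every YY1bKO array above every control array.

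Among the PPARs, Ppara, whose product drives fatty acid oxidation in liver, muscle and brown fat, was 1.96-fold higher in YY1bKO. Its log2 values were 6.71, 7.80 and 6.41 in control arrays and 8.25, 7.80 and 7.76 in YY1bKO (probe set 1449051_at). Control replicate 2 stood apart from the other controls and level with the lower YY1bKO arrays, so the groups overlapped. The log2 difference was 0.97 ± 0.37 (SE; 95% confidence interval 0.08 to 1.86), with an unadjusted p of 0.0375 and an adjusted p of 0.482 by limma, and an exact 2-sided permutation test gave p = 0.2, where 0.1 is the smallest that 3 against 3 arrays allow. Without control replicate 2, the array with the high skin and mammary epithelium markers, the difference was 1.38 (unadjusted p = 5.58e-04, adjusted p = 0.223 by limma). Without YY1bKO replicate 1 the difference was 0.81 (unadjusted p = 0.11 by limma). The part of other tissue in the value was not tested. In bulk tissue, a change in the number of cells of a type and a change in RNA per cell cannot be told apart. This holds for Ppara and for every gene that follows.

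Pparg, the master regulator of adipocytes, was bright in every array, and its groups overlapped. Its log2 values were 11.11, 10.13 and 10.31 in control arrays and 11.26, 10.31 and 10.69 in YY1bKO (1420715_a_at). Replicate 1 was the highest array in both groups, and these are the arrays with the lowest B cell marker means. The difference of 0.24 ± 0.34 (SE; interval -0.58 to 1.05) did not pass (limma adjusted p = 0.861) and was -0.02 without YY1bKO replicate 1. Ppard, the receptor most active in muscle fatty acid use, was dim, with log2 values of 5.61, 5.32 and 5.19 in control arrays and 5.24, 5.26 and 5.10 in YY1bKO. Its difference of -0.17 ± 0.13 (SE; interval -0.50 to 0.15) did not pass either (adjusted p = 0.733), and it was -0.05 without control replicate 1 and -0.27 without control replicate 3.

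The RXR partners showed no difference past their spread. Rxra, the most widely expressed partner, had log2 values of 8.97, 8.71 and 8.54 in control arrays and 8.70, 8.64 and 8.81 in YY1bKO on its brighter probe set (1454773_at). The difference was -0.02 ± 0.13 (SE; interval -0.35 to 0.30), and the second probe set (1425762_a_at) gave -0.03 ± 0.17, both with limma adjusted p-values of at least 0.970. Control replicate 1 was the highest of the 6 arrays on both. Rxrg, a partner with a narrower tissue range that includes muscle, had log2 values of 7.27, 6.69 and 7.17 in control arrays and 7.59, 7.23 and 6.97 in YY1bKO. Its difference of 0.22 ± 0.22 (SE; interval -0.30 to 0.75) did not pass (adjusted p = 0.793), and it was 0.06 without YY1bKO replicate 1 and 0.05 without control replicate 2.

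The ERRs differed little between the groups. Esrra, whose product ERR alpha is a main partner of PGC-1 alpha on mitochondrial genes, had log2 values of 8.43, 8.58 and 8.26 in control arrays and 8.44, 8.36 and 8.34 in YY1bKO. The groups overlapped fully, and the difference of -0.04 ± 0.11 (SE; limma adjusted p = 0.935) had an interval from -0.31 to 0.23. Esrrg, whose product ERR gamma is abundant in heart, oxidative muscle and brown fat, was dim, at 5.26, 4.72 and 5.03 in control arrays and 4.97, 4.91 and 5.06 in YY1bKO. It lay below the lower quartile on 2 of the 6 arrays, and its difference of -0.02 ± 0.15 (SE; interval -0.39 to 0.35) did not pass (adjusted p = 0.975).

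**Figure D2:**
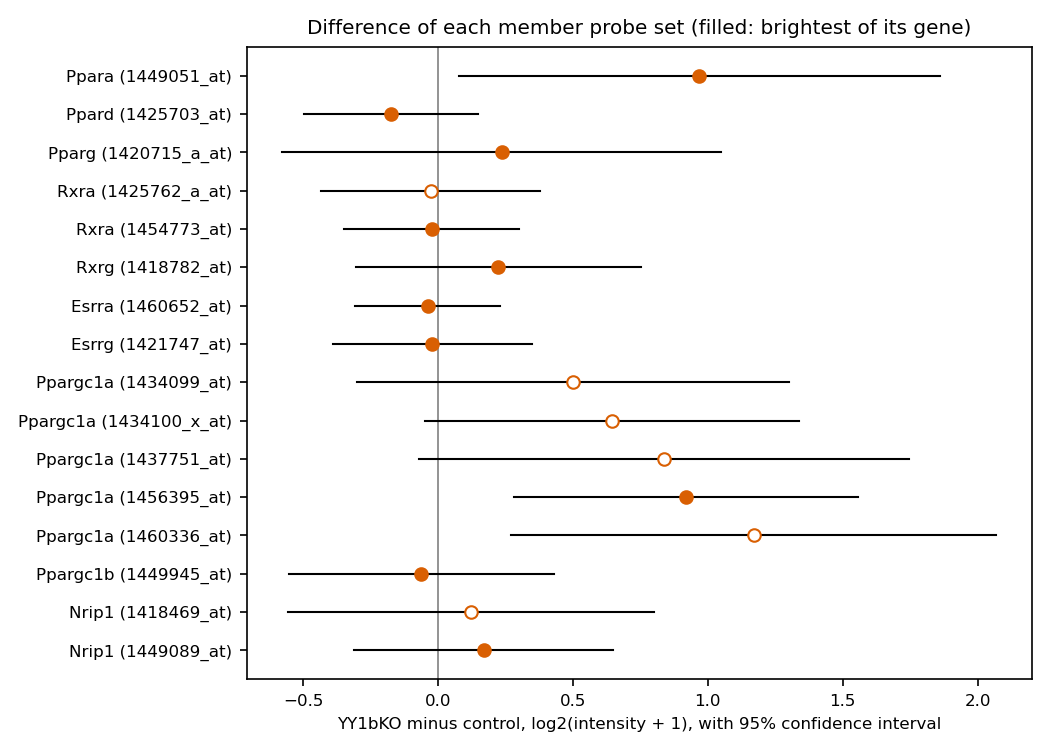
Log2 difference of YY1bKO minus control for each of the 16 member probe sets, with the 95% confidence interval from limma on all 6 arrays; filled points mark the brightest probe set of a gene. The intervals of Ppara and of 2 Ppargc1a probe sets lie above 0 before adjustment for the number of probe sets tested, and all others include 0.

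Ppargc1a, the coactivator induced by cold and exercise, was the only member whose arrays separated by group, on its 2 brightest probe sets. On their brightest probe sets, 11.5% of all 12394 genes separated in this way with YY1bKO higher, so the separation alone does not set Ppargc1a apart. The first (1456395_at) had log2 values of 6.24, 5.60 and 5.64 in control arrays and 7.14, 6.77 and 6.32 in YY1bKO. It was 1.89-fold higher, with a difference of 0.92 ± 0.26 (SE; interval 0.28 to 1.56), an unadjusted p of 0.0122 and an adjusted p of 0.356 by limma. The second (1460336_at) had 6.23, 5.44 and 5.24 in control arrays and 7.48, 6.58 and 6.37 in YY1bKO, a difference of 1.17 ± 0.37 (SE; adjusted p = 0.401). On both, an exact 2-sided permutation test gave p = 0.1, the smallest possible here, and the lowest YY1bKO array lay little above control replicate 1. The other 3 probe sets were dimmer and overlapped. The probe set 1437751_at had 5.56, 4.54 and 4.77 in control arrays and 6.43, 5.67 and 5.27 in YY1bKO, a difference of 0.84 ± 0.38 (SE). The probe set 1434100_x_at had 5.44, 4.77 and 5.14 against 6.32, 5.57 and 5.40, a difference of 0.65 ± 0.29. The dimmest, 1434099_at, had 5.07, 4.61 and 4.86 against 6.06, 5.21 and 4.77, a difference of 0.50 ± 0.33, and was below the lower quartile on 3 of the 6 arrays. All 5 probe sets were thus higher in YY1bKO on average, by 1.42-fold to 2.25-fold, and none passed (limma adjusted p-values from 0.356 to 0.693). They read the same RNA of the same arrays and are not replicates.

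The arrays kept nearly the same order on the 5 probe sets. YY1bKO replicate 1 was the highest array on all 5, and control replicate 1 the highest control on all 5. YY1bKO replicate 1 also held the highest skeletal muscle marker mean (1.70), and skeletal muscle expresses Ppargc1a. The part of muscle RNA in the Ppargc1a differences, with all arrays or with some left out, was not tested. Without that array the differences of the 2 brightest probe sets were 0.72 (unadjusted p = 0.0369) and 0.84 (unadjusted p = 0.0436), and those of the other 3 were 0.52, 0.37 and 0.14. Without the replicate 1 array of each group, which are the 2 arrays with the lowest B cell means, the brightest probe sets gave 0.93 and 1.13. Without control replicate 2 and YY1bKO replicate 1 together they gave 0.61 (unadjusted p = 0.0856 by limma) and 0.74 (unadjusted p = 0.0983). The other 3 probe sets gave 0.31, 0.19 and 0.03 in that fit. The 2 YY1bKO arrays that all of these fits keep had muscle marker means of -0.42 and -0.40, beside -0.41, -0.34 and -0.12 in the controls. Of the 20 markers of that list, 14 were highest on YY1bKO replicate 1 and 3 on control replicate 3. Control replicate 1, YY1bKO replicate 2 and YY1bKO replicate 3 each had 1. Among those not highest on YY1bKO replicate 1, Myh7, Des, Tnnt1, Ryr1 and Casq1 had log2 differences of 0.07, 0.09, -0.09, -0.17 and -0.20. Also among them, the actin gene Acta1 had log2 values of 8.29, 7.51 and 8.22 in control arrays and 10.62, 9.04 and 10.62 in YY1bKO. The myosin light chain gene Myl1, highest on YY1bKO replicate 1, had 10.01, 8.96 and 9.28 against 10.82, 9.84 and 10.12.

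**Figure D3:**
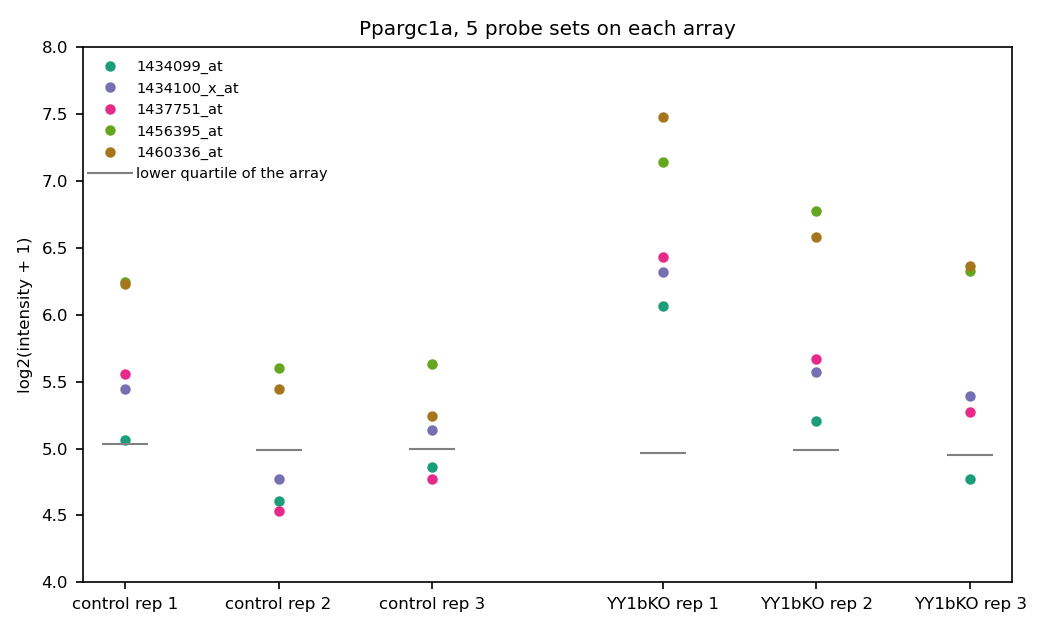
Log2(intensity + 1) of the 5 Ppargc1a probe sets on each of the 6 arrays, 1 colour per probe set, with a grey dash at the lower quartile of all probe sets on that array. YY1bKO replicate 1 is highest on every probe set (6.06 to 7.48), and the 3 dimmer probe sets lie near the lower quartile (about 5) in the controls.

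Ppargc1b, the second coactivator of the family, which also drives mitochondrial genes but responds less to cold, showed no such separation. Its log2 values were 8.01, 8.58 and 8.17 in control arrays and 8.41, 8.29 and 7.87 in YY1bKO, with a difference of -0.06 ± 0.20 (SE; interval -0.55 to 0.43; limma adjusted p = 0.944). The change of Ppargc1a exceeded that of Ppargc1b by 0.98 ± 0.37 (SE) on the log2 scale, with the ratio higher in 3 of 3 YY1bKO arrays than in every control (exact permutation p = 0.1, adjusted p = 0.25 over 5 such contrasts). The change of Ppara exceeded that of Ppard by 1.14 ± 0.46 with the same p-values. Ppara against Pparg (0.73 ± 0.64; exact permutation p = 0.4), Rxrg against Rxra (0.25 ± 0.28; p = 0.5) and Esrrg against Esrra (0.02 ± 0.23; p = 1) had larger p-values, and none of the 5 contrasts passed.

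Nrip1, the corepressor, had log2 values of 9.90, 10.09 and 9.80 in control arrays and 10.49, 9.76 and 10.05 in YY1bKO on its brighter probe set (1449089_at). YY1bKO held both the highest and the lowest array, and the difference of 0.17 ± 0.20 (SE; interval -0.31 to 0.65) did not pass (limma adjusted p = 0.831). The second probe set (1418469_at), with values of 8.89, 8.97 and 8.69 against 9.60, 8.51 and 8.80, gave 0.12 ± 0.28. Without YY1bKO replicate 1 the differences were -0.03 and -0.19. That array was the highest of the 6 for 5 of the 10 genes on their brightest probe sets (Ppara, Pparg, Rxrg, Ppargc1a and Nrip1), where it was the highest for 16.8% of all genes.

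**Figure D4:**
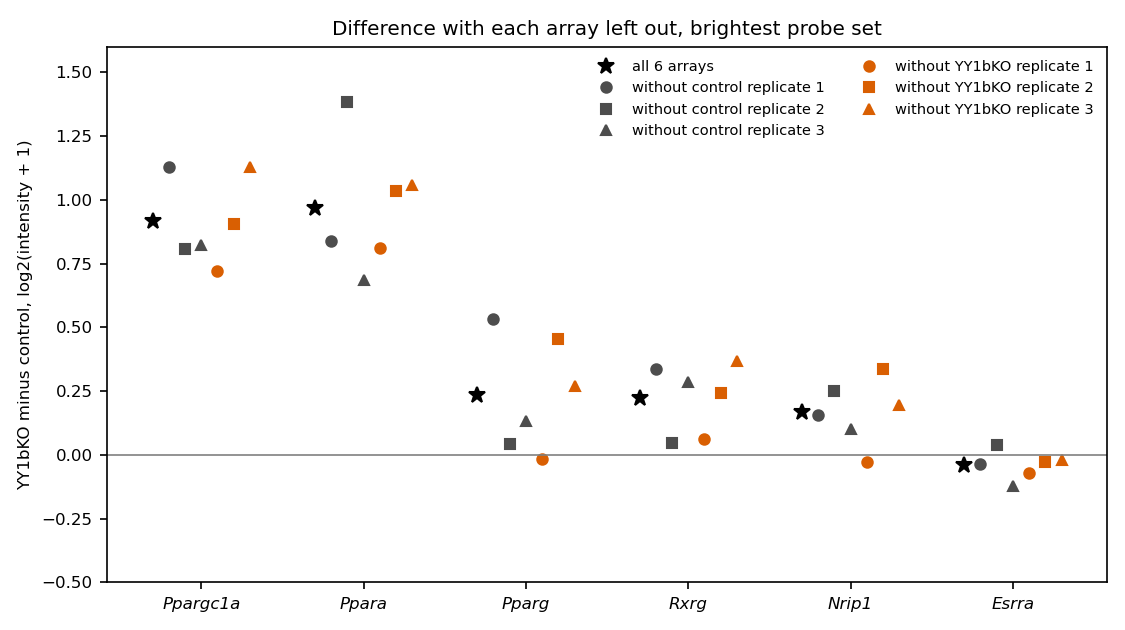
Log2 difference of YY1bKO minus control for 6 members on their brightest probe sets, with all 6 arrays (star) and with each array left out in turn (grey, a control array; orange, a YY1bKO array; the symbol gives the replicate number). Ppargc1a stays between 0.72 and 1.13 and Ppara between 0.69 and 1.38, while Pparg and Nrip1 cross 0 without YY1bKO replicate 1. Esrra crosses 0 without control replicate 2 (0.04).

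Genes that these receptors are known to act on were counted in the same arrays, beside all genes. Over the 12394 genes, each on its brightest probe set, 4 (0.0323%) passed the adjusted threshold, 8.57% were higher and 2.07% lower at an unadjusted p under 0.05, and 11.5% had no overlap with YY1bKO higher. Of 28 fatty acid oxidation genes known as PPAR alpha targets, 24 were higher, 17 of them at an unadjusted p under 0.05, and none was lower at that level. Their median log2 difference was 0.60, and the list's mean, relative to its mean over all arrays, was -0.30, -0.20 and -0.68 in control arrays and 0.40, 0.36 and 0.42 in YY1bKO. Of the 28, 16 were higher at that unadjusted level without YY1bKO replicate 1, and 13 without control replicate 2 and YY1bKO replicate 1 together. Fabp3, the fatty acid binding protein of heart and brown fat, rose from log2 values of 6.10, 5.14 and 5.10 to 11.13, 11.52 and 11.06 (difference 5.79 ± 0.30, SE; limma adjusted p = 0.00771). Slc27a2, an enzyme that activates very long fatty acids, rose from 4.65, 4.37 and 3.78 to 8.00, 7.93 and 7.89 (3.67 ± 0.22; adjusted p = 0.0142), with all controls below the lower quartile. Both calls were lost in each fit without 1 YY1bKO array, with adjusted p-values from 0.101 to 0.127 for Fabp3 and from 0.138 to 0.231 for Slc27a2, and that of Slc27a2 also without control replicate 2 (0.0572). Acaa2, the thiolase of mitochondrial oxidation, had a difference of 1.00 ± 0.09 (adjusted p = 0.0591), and Pdk4, the kinase that turns pyruvate dehydrogenase off, went from 10.55, 11.06 and 10.22 to 12.12, 12.44 and 12.49 without passing (1.74 ± 0.23; adjusted p = 0.139).

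Mitochondrial genes known as ERR targets were all higher, 27 of 27 measured, with 15 at an unadjusted p under 0.05, 21 without overlap between the groups and none past the adjusted threshold by limma. The median was 0.35, and the list's mean was -0.08, -0.25 and -0.37 in control arrays and 0.29, 0.17 and 0.24 in YY1bKO. At that unadjusted level there were 11 without YY1bKO replicate 1, and 8 without control replicate 2 and YY1bKO replicate 1 together. Cox7a1, a cytochrome oxidase subunit of muscle and brown fat, had the smallest p, with log2 values of 7.11, 6.15 and 6.09 in control arrays and 8.69, 8.82 and 9.01 in YY1bKO (2.39 ± 0.28, SE; adjusted p = 0.11). Ogdh (0.71), Sdhb (0.52) and Idh3g (0.53), enzymes of the citrate cycle, followed with limma adjusted p-values from 0.17 to 0.173. Endothelial markers were also higher in 10 of 10, with a median of 0.325 and 1 at an unadjusted p under 0.05, and their list mean was 0.20, -0.48 and -0.23 in control arrays and 0.13, 0.03 and 0.35 in YY1bKO. T cell markers were lower in 9 of 9, with a median of -0.42 and none at that level, and their list mean was -1.41, 0.51 and 1.48 in control arrays and -1.53, 0.87 and 0.08 in YY1bKO. The part of these cells in the ERR, PPAR alpha and PPAR gamma lists was not tested. Esrra and Esrrg themselves differed by -0.04 and -0.02 in the same arrays.

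Adipocyte genes known as PPAR gamma targets were higher in 14 of 17 measured, 7 of them at an unadjusted p under 0.05 and none past the adjusted threshold by limma, with a median of 0.33. Without control replicate 3 or YY1bKO replicate 1, 4 were higher at that level. Pck1, the enzyme of glyceroneogenesis, went from 11.54, 11.65 and 11.59 to 12.48, 12.39 and 12.36 (0.82 ± 0.09, SE; adjusted p = 0.0734), although its other probe set differed by 0.01. Slc27a1, a fatty acid transporter, differed by 1.19, and the lipases Pnpla2 and Lipe by 1.00 and 0.83, with limma adjusted p-values from 0.169 to 0.235. Of 14 thermogenic adipocyte markers measured, 13 were higher, 3 of them past the adjusted threshold (Ucp1, Fabp3 and Slc27a2), and of 10 white adipocyte markers 9 were higher, 4 at an unadjusted p under 0.05 and none past the adjusted threshold. Elovl3, a fatty acid elongase of brown fat, differed by 2.15 ± 0.21 (SE; limma adjusted p = 0.0591). The PPAR alpha and ERR lists each share 2 genes with the thermogenic markers, and the PPAR gamma list shares 6 with the white adipocyte markers.

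**Figure D5:**
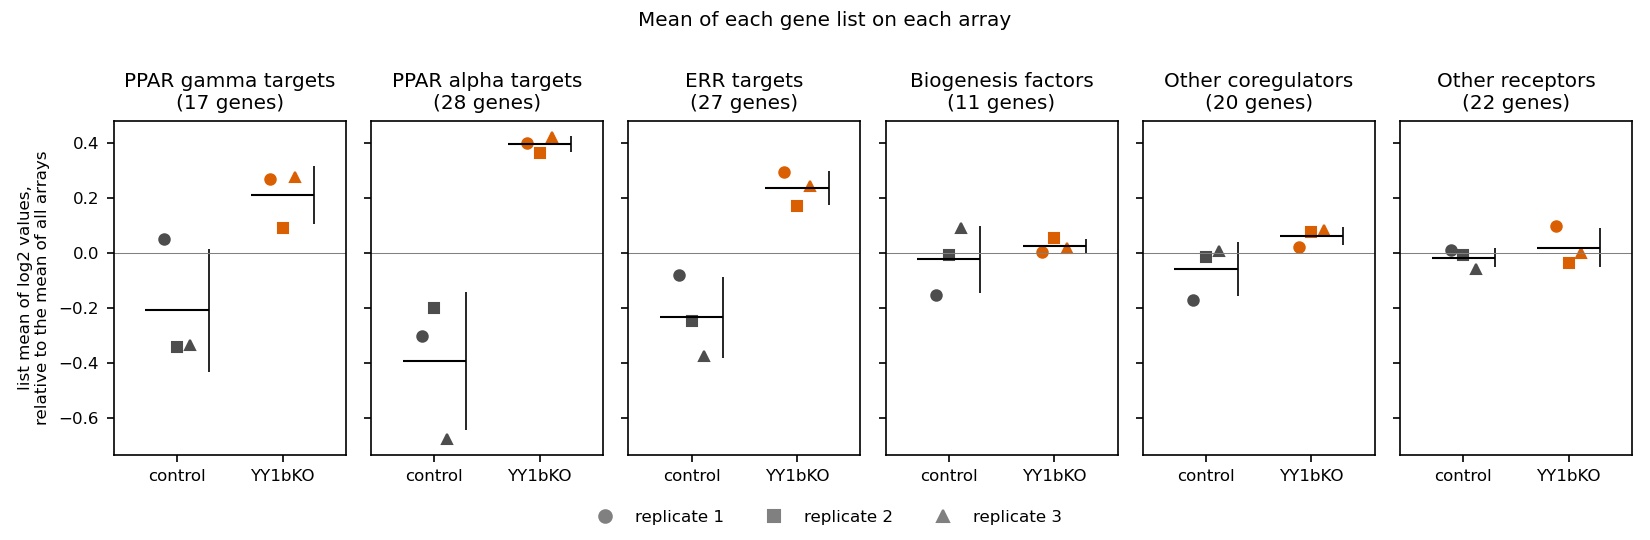
Mean log2 value of each of 6 gene lists on each array, relative to its mean over the 6 arrays, with the group mean and SD drawn as a line and a bar. The means of PPAR alpha and ERR targets are higher in every YY1bKO array than in every control, as are those of PPAR gamma targets, with the lowest YY1bKO array (0.09) close to control replicate 1 (0.05).

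Of 11 mitochondrial biogenesis factors that PGC-1 proteins are known to act through, 6 were higher and 5 lower, 2 were higher at an unadjusted p under 0.05, none passed by limma, and the median was 0.03. Mfn2, the outer membrane fusion protein, differed by 0.44 (adjusted p = 0.306; its 2 probe sets gave -0.07 and 0.44), and Tfb2m, a mitochondrial transcription factor, by 0.21 (0.512). The count of 2 was 1 in 14 of the 18 alternatives, among them every fit without 1 array other than control replicate 1. Nrf1, a nuclear activator of respiratory genes, differed by -0.30 (0.644; 3 probe sets from -0.30 to 0.05), and Polg2, a subunit of the mitochondrial DNA polymerase, by 0.22 (0.734).

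Of 20 further coregulators measured, 12 were higher, 4 of them at an unadjusted p under 0.05, with a median of 0.04. Lpin1, which makes diacylglycerol and also coactivates PPAR alpha with PGC-1 alpha, had log2 values of 11.54, 11.29 and 11.20 in control arrays and 12.22, 12.26 and 12.64 in YY1bKO (1.03 ± 0.16, SE; limma adjusted p = 0.166; its other probe set gave 1.11). Cited2 (0.74), an adaptor of the coactivator CBP, Kat2b (0.36), an acetyltransferase, and Carm1 (0.29), an arginine methyltransferase, had adjusted p-values from 0.352 to 0.426. None passed by limma, and the count of 4 was 2 without control replicate 3 and 2 without YY1bKO replicate 3.

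Of 22 other nuclear receptors with metabolic or hormonal roles, 14 were higher and 8 lower, with a median of 0.07 and none past the threshold by limma. Nr1h3, the oxysterol receptor LXR alpha and a partner of RXR, was the only one of them at an unadjusted p under 0.05, at 8.02, 7.42 and 7.85 in control arrays and 8.38, 8.31 and 8.44 in YY1bKO (0.62 ± 0.16, SE; unadjusted p = 0.00887, adjusted p = 0.329). Without control replicate 1 or YY1bKO replicate 3, 2 genes were at that level. Rara, a retinoic acid receptor, Nr1d2, a repressor of the clock, and Nr1h4, the bile acid receptor, differed by -0.17, 0.31 and 0.15, the last of these dim on all 6 arrays, with limma adjusted p-values from 0.649 to 0.723.

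Ppargc1a and Ppara resembled different genes across the 6 arrays, which share their tissue content and normalization. By Pearson's r over these 6 arrays and all 12394 genes, given as a description, Ppargc1a was most like Ndufaf4, an assembly factor of respiratory complex I (0.996), Nfe2l2, the antioxidant regulator NRF2 (0.992), Slc4a4, a bicarbonate transporter (0.989), Cadm4, a cell adhesion protein (0.986), and Plekha4 (0.981). Of these Slc4a4 differed most between the groups, by 1.25 (limma adjusted p = 0.235). Ppara was most like Atp5a1, the alpha subunit of ATP synthase (0.995), Adh5, an alcohol dehydrogenase (0.994), Nrbp2 (0.989), Hspd1, the mitochondrial chaperonin (0.987), and Srek1 (0.986). Each of these, like Ppara, had control replicate 2 as its highest control, which follows from choosing them by r. Nrip1 was most like Srm, spermidine synthase (0.984), followed by Pcp4l1, Dlx1, Pou3f4 and Gap43 (0.983 to 0.956). Of these, Dlx1, Pou3f4 and Gap43 were below the lower quartile on all 6 arrays, and Pcp4l1 was dim. How high the largest of 12394 such values over 6 arrays would run by chance was not tested.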

How the data were processed

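The deposited values are linear probe set intensities that the authors computed with RMA, per the submitters' processing notes; linear scale was inferred from the values, and neither RMA's version nor its probe annotation was stated. RMA forces arrays to one distribution, which hides a shift in total RNA, and it compresses dim values. No array pair was a duplicate (Spearman correlation at most 0.994).

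Of 22690 probe sets, 20393 had 1 gene symbol in the platform annotation and were tested; 691 had several and 1606 none. Symbols of 20364 were matched by gene identifier to RefSeq (GRCm38.p6), used here for names; promoters came from RefSeq's table of that build. Values were taken as log2(intensity + 1), with no filter, and fitted across all probe sets with limma 3.58.1 in R 4.3.3 (lmFit, eBayes; 6.26 degrees of freedom), after a test on simulated data. Gene lists use the brightest probe set of a gene; named from each list are the 4 genes with the smallest p. Members, lists and rules were chosen with earlier results of these data known, so no pattern here is independent support. The main fit did not pair arrays by replicate number, and whether the numbers mark pairs is not known. Python 3.11.15 made tables and figures.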

Additional observations from a re-analysis of the deposited data

How the results depend on the processing

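Under 18 alternatives (16 planned, 2 chosen after seeing the data), 0 of 267 fits of member probe sets passed the adjusted threshold by limma. All 94 of Ppargc1a and Ppara kept their direction, but these fits reuse the same 6 arrays and are not independent. The smallest Ppargc1a difference among them was 0.03 (1434099_at, without control replicate 2 and YY1bKO replicate 1). The range over the alternatives was 0.61 to 1.13 for Ppargc1a 1456395_at and 0.68 to 1.38 for Ppara. Calls over all probe sets, 6 with all arrays, were 11 with a pseudocount of 16, 12 with array weights and 1 with the replicate block, 1 to 6 without 1 array, 2 without replicate 1 of both groups and 1 without control replicate 2 and YY1bKO replicate 1. Member probe sets higher at an unadjusted p under 0.05, 3 with all arrays, were 1 above the 50th percentile of brightness, 5 with the replicate block, 1 to 5 without 1 array (1 without control replicate 3, 5 without YY1bKO replicate 3), and 1 without control replicate 2 and YY1bKO replicate 1. Whether replicate numbers mark pairs is not known. Deviations from the group means correlated at 0.61, 0.11 and 0.03 for numbers 1, 2 and 3. Pairs of unlike numbers ran from -0.65 (control replicate 1 with YY1bKO replicate 2) to 0.60 (control replicate 3 with YY1bKO replicate 2). The block changed no call of a member but ended those of Fabp3 and Slc27a2 (limma adjusted p = 0.0822 for each).

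Differences near 0 changed sign in 9 of the 16 member probe sets. The ranges without 1 array were -0.19 to 0.35 and -0.0263 to 0.34 for Nrip1 (1418469_at and 1449089_at), -0.02 to 0.53 for Pparg, -0.16 to 0.11 for Esrrg, -0.12 to 0.11 and -0.12 to 0.0946 for Rxra (1425762_a_at and 1454773_at), -0.18 to 0.10 for Ppargc1b, -0.27 to -0.05 for Ppard (no change of sign), -0.12 to 0.0402 for Esrra and -0.15 to 0.0041 for Yy1 (1435824_at), and 0.0465 to 0.37 for Rxrg. Without replicate 1 of both groups they were -0.17 and -0.0394 for Nrip1, 0.11 for Esrrg, and 0.0092 and 0.10 for Rxra. Without control replicate 2 and YY1bKO replicate 1 they were -0.13 for Nrip1 (1418469_at), -0.12 for Rxrg, -0.21 for Pparg and 0.0085 for Esrra. Array weights gave 0.0407 for Esrrg and 0.0323 and 0.0473 for Rxra, and quantile normalization 0.0219 for Esrrg 1421747_at. The median of the other nuclear receptors, 0.07, was 0.14 above the 50th percentile, 0.0142 to 0.0991 without 1 array and -0.0278 without control replicate 2 and YY1bKO replicate 1. The cause of these shifts was not tested. Medians of the other 5 lists moved by less than the spread between arrays, although that of the coregulators, 0.04, changed sign in 2 of its 18 alternatives. Fabp3 kept its call in 13 of 18 alternatives, and Slc27a2 in 10 of 17. With 3 arrays per group, the width of the 95% intervals limits what each member can show, from -0.31 to 0.23 for Esrra to -0.58 to 1.05 for Pparg.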
